A study of Schizosaccharomyces pombe with 6 samples.

Results

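Fission yeast transcribes many long noncoding RNAs, and 82 of them that were well expressed in wild-type cells are described here. They are the rows of the count table with an ID beginning SPNCRNA. and a mean of at least 300 counts over the 3 wild-type libraries, less 11 RNAs that had been set apart as the most changed between strains (3 of those 11 also reach the minimum). The table has 6988 rows, of which 1527 are SPNCRNA rows. The members were thus chosen by their wild-type counts, and the most changed RNAs were removed by name, so the differences between strains below are a description and carry no test. The members nearest the minimum were *prl58* (mean of 305 counts), SPNCRNA.1537 (312.7 counts) and SPNCRNA.1296 (314.3 counts). The rows just under it were SPNCRNA.975 (297.3 counts), SPNCRNA.896 (297.0 counts) and *snoR61* (291.7 counts).

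Poly(A)+ RNA was sequenced from haploid wild-type cells and from haploid *asp1-H397A aps1*∆ *siw14*∆ *spx1*∆ cells (called the mutant from here on), in 3 biological replicate cultures of each strain. The labels give both strains as *h-*, while a strain with the same 4 alleles stands as *h+* in the study's strain list, so the mating type of the mutant is uncertain. All cultures grew logarithmically at 30°C in the same ePMGT medium, which supplies phosphate. The mutant carries *asp1-H397A* (marked with natMX), which inactivates the pyrophosphatase of the inositol pyrophosphate enzyme Asp1, and deletions of *aps1* (kanMX) and *siw14* (hygMX), which encode the other inositol pyrophosphatases. It also lacks *spx1* (replaced with *ura4*), which encodes an SPX domain protein, so the effects of the 4 alleles cannot be told apart here. *ura4* had 0 counts in every wild-type library and a mean of 8594 normalized counts in the mutant. Its presence is thus a further strain difference that cannot be separated from the 4 alleles.

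A long noncoding RNA is transcribed by RNA polymerase II and usually capped and polyadenylated, without coding for a protein of note. In fission yeast such RNAs often run antisense to a coding gene or start upstream of one, where the act of transcribing them can repress the neighbour, as is known for the phosphate-regulated genes. Many are held at low levels by the nuclear exosome, by the Mmi1 elimination machinery for meiotic transcripts, and by early transcription termination, a step that inositol pyrophosphates are known to influence.

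Library totals ran from 16593476 to 22690741 counts. Counts of *aps1*, *siw14* and *spx1* were lower, and those of *ura4* higher, in every mutant library. The mutant means were 301.5 normalized counts for *aps1* and 90.3 for *siw14*, but 2004 for *spx1* against 6049 in the wild-type, so that counts remained at the deleted gene. The wild-type libraries were less alike than the mutant ones. Among 2646 coding genes in the members' range of counts, wild-type replicate 3 had a median log2 ratio of −0.23 to the mean of the other wild-type libraries. The members went the other way, with a median of 0.12 in that library. Wild-type replicate 1 was displaced about as far in the opposite directions, with medians of 0.21 for those coding genes and −0.12 for the members. For some results that rest on wild-type replicate 3, the value without it is also given.

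Values are given as normalized counts, which are counts scaled to a common library size, so they compare one RNA between libraries. To compare different RNAs, they are divided by the exon length in kilobases. The members covered a wide range of levels, but most sat in a narrow band. The mean normalized count over the 6 libraries ran from 218.6 to 82669 with a median of 491.6, and 41 members lay under 500, 32 between 500 and 1000, and 9 at or above 1000. One RNA stood far above all others. *prl53*, annotated as a poly(A)-bearing noncoding RNA, had normalized counts of 73189, 75276 and 82838 in wild-type replicates 1 to 3, and of 89405, 83958 and 91348 in the mutant. Its level was 9.50 times that of the next member, and the mutant libraries all lay above the wild-type ones. The log2 fold change of *prl53* was 0.19 ± 0.10 (SE, n = 3 per strain), and it was 0.24 without wild-type replicate 3. Most of a small coding gene model, *SPAC27E2.11c* (94.3% of it), is overlapped by *prl53* on the same strand, and reads of the pair cannot be told apart in the overlap. That gene had at most 14.1 normalized counts in any library.

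**Figure D1:**
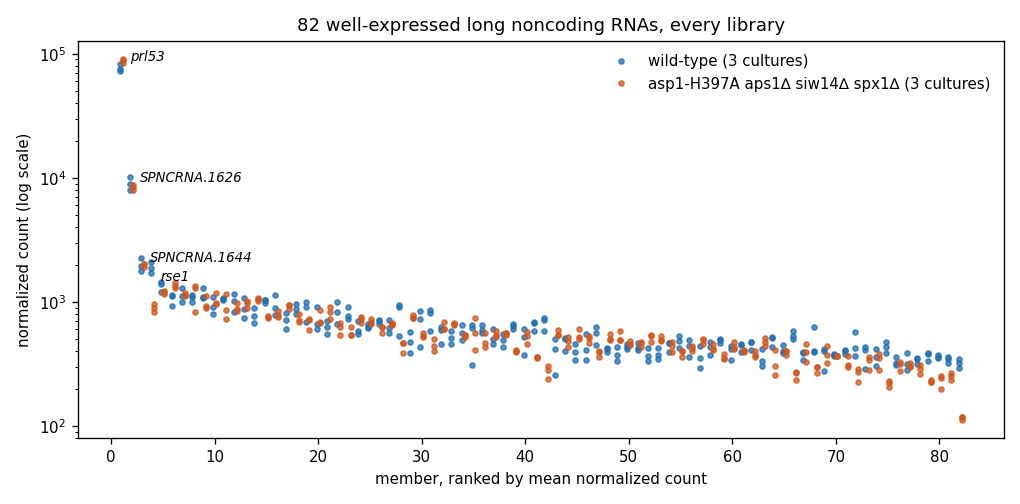
Normalized counts (log axis) of the 82 members in each of the 6 libraries, ranked by mean level (x axis), with wild-type cultures in blue and mutant cultures in orange. *prl53* stands near 82669, SPNCRNA.1626 near 8698, and most of the rest between 200 and 1000.

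SPNCRNA.1626 was second. Its normalized counts were 7948, 8881 and 10123 in the wild-type and 8687, 8035 and 8512 in the mutant, so that the groups overlapped, and its level was 17.7 times the median of the members. It is antisense to the whole of *mbx2*, which encodes a MADS-box transcription factor. SPNCRNA.1644 came next, with 1777, 1942 and 2255 normalized counts in the wild-type and 2007, 1922 and 2011 in the mutant. It covers the whole of *spo4*, which encodes a protein kinase used in meiosis, from the opposite strand. The strain difference of these RNAs was small against its error, with log2 fold changes of −0.09 ± 0.11 for SPNCRNA.1626 and −0.01 ± 0.10 for SPNCRNA.1644 (SE, n = 3 per strain).

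*rse1*, annotated as a *cis*-acting repressor of *ste11*, had the next level and is taken up below. The next 6 by level were SPNCRNA.979, SPNCRNA.1421, SPNCRNA.1469, SPNCRNA.605, SPNCRNA.904 and SPNCRNA.1351. Each of these 6 RNAs overlaps a coding gene on the opposite strand, and in all but SPNCRNA.1351 it covers the whole of one. SPNCRNA.1421, antisense to the kinase gene *ppk31*, had 919.7, 1108 and 1134 normalized counts in the wild-type and 1299, 1416 and 1345 in the mutant. The mutant libraries were all higher, and the log2 fold change of SPNCRNA.1421 was 0.36 ± 0.12 (SE, n = 3 per strain). For the other 5 the strains overlapped, and their log2 fold changes ran from −0.24 (SPNCRNA.904) to 0.16 (SPNCRNA.1351).

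Per kilobase the members were low beside coding genes. Their median was 251.0 normalized counts per kilobase, against 724.7 for the 4961 coding genes tested. Of the 81 members with a length, 76 lay under that coding median and 19 under the lower decile of coding genes (163.9). The 5 at or above the median were *prl53* (44638 per kilobase), SPNCRNA.1626 (1701), SPNCRNA.1351 (833.6), SPNCRNA.1600 (746.4) and SPNCRNA.1644 (742.2). The members were also long. Their exon length ran from 447 bases (*prl58*) to 5317 bases (SPNCRNA.1263), with a median of 2219 bases against 1269 for the other SPNCRNA rows tested. The rule on raw counts was not corrected for length, and its part in this difference was not tested. All 81 are annotated with a single exon, and 13 are noted in the annotation as a possible alternative UTR of a neighbouring gene.

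Together the members took a similar small share of all counts in both strains. The share was 0.680%, 0.665% and 0.660% in wild-type replicates 1 to 3, and 0.700%, 0.665% and 0.697% in the mutant. More than 56% of these reads came from *prl53* in every library, and without it the order changed. The other 81 members took 0.293%, 0.291% and 0.282% of counts in the wild-type and 0.266%, 0.260% and 0.259% in the mutant, with every mutant library below every wild-type library. Within the SPNCRNA rows alone, the members held 61.5% to 65.9% of counts in the wild-type and 67.9% to 69.4% in the mutant. This difference also turned on *prl53*. The other 81 members held 26.5%, 27.6% and 28.2% of SPNCRNA counts in the wild-type and 26.3%, 26.6% and 25.8% in the mutant. With *prl53* taken out of the total as well, they held 40.8% to 45.3% in the wild-type and 45.3% to 45.8% in the mutant. That total includes RNAs that had been set apart, such as SPNCRNA.935, with 7933 normalized counts in the wild-type and 353.5 in the mutant, and without those 11 RNAs the strains overlapped (44.1% to 48.9% and 46.9% to 47.4%).

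Most members differed little between strains. The median log2 fold change (mutant over wild-type) was −0.08, against 0.00 over the 5947 genes tested, 0.02 over coding genes and −0.20 over the 862 other SPNCRNA rows tested. The fold changes ran from −1.47 to 0.66 on the log2 scale, with quartiles of −0.34 and 0.14. Within 1.5-fold of no change were 67 of 82 members (81.7%), and within 2-fold 78 (95.1%). Of all genes tested, 89.7% were within 1.5-fold and 95.9% within 2-fold. The shares were 93.2% and 97.4% for coding genes, and 71.9% and 87.8% for the other SPNCRNA rows tested. The members were thus less often within 1.5-fold than all genes tested, although the most changed RNAs had been removed. The 95% interval of the fold change lay wholly within 1.5-fold for 40 members and within 2-fold for 70, so that for the rest a change of that size was not excluded. A rule on wild-type counts keeps RNAs that are high there. With a rule on the mean normalized count over all 6 libraries instead (87 RNAs, 78 of them members), the median was −0.01.

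**Figure D2:**
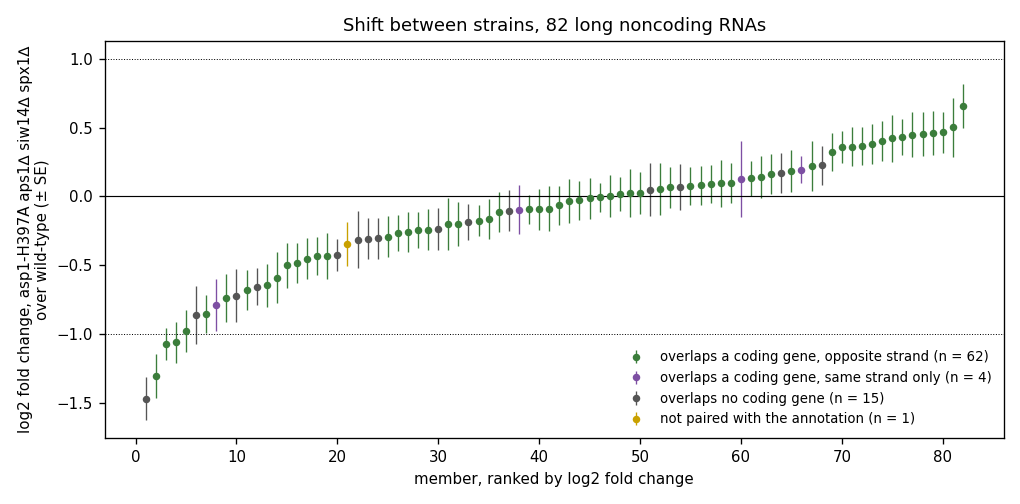
Log2 fold change of each member, mutant over wild-type, with its standard error (n = 3 libraries per strain), ranked from lowest to highest and coloured by overlap with coding genes. Dotted lines mark 2-fold: 4 members lie below −1, none lies above 1, and the median is −0.08.

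By edgeR's quasi-likelihood test, 1 member was higher and 15 were lower at an adjusted p of 0.05 or less, beside 5.33% of all genes tested that were higher and 7.03% that were lower. With a 2-fold minimum as well, no member was called higher (also 0 by DESeq2 and by limma-voom) and 4 were called lower, beside a background of 0.37% and 1.72% of genes. The values of the 3 mutant libraries lay wholly above the wild-type in 16 members and wholly below in 25, where 16.4% and 17.3% of all genes did so (33.7% in either direction). Since the rule used these libraries, nothing is read from these counts. They also depended on single libraries. Without wild-type replicate 3, 17 members were higher and 23 lower, and the background rose to 14.3% and 15.2% of genes. All 16 members past the threshold with 6 libraries were among those 40. The number lower fell to 9 without mutant replicate 1 and to 6 without wild-type replicate 2, mutant replicate 2 or mutant replicate 3, and the number higher was 0 without any one of these libraries and 3 without wild-type replicate 1.

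The lowest fold change belonged to *prl58*, a short poly(A)-bearing RNA that overlaps no coding gene. Its normalized counts were 345.3, 324.8 and 293.5 in wild-type replicates 1 to 3, and 118.2, 111.5 and 118.3 in the mutant. Every mutant library was far below the wild-type mean of 321.2, the mutant replicates were close to each other, and the log2 fold change of *prl58* was −1.47 ± 0.16 (SE, n = 3 per strain). On the opposite strand upstream of it lies *itr2*, which encodes a myo-inositol transporter of the plasma membrane. *itr2* was not part of the rule and can be tested: its log2 fold change was −0.48 ± 0.09 (adjusted p = 0.00473), and this was past the threshold in 4 of 6 fits that left out 1 library, with an adjusted p of at most 0.0517 in the other fits, without wild-type replicate 2 or mutant replicate 2. The gene on the other side, *SPAC20G8.02* (a phospholipase gene), also fell, with a log2 fold change of −0.40 ± 0.10 (adjusted p = 0.0242), but in only 2 of 6 such fits (those without wild-type replicate 1 or 3).

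SPNCRNA.1195 lies wholly inside *tti1* on the opposite strand. *tti1* encodes a subunit of the TTT co-chaperone complex. SPNCRNA.1195 had 582.3, 715.4 and 743.6 normalized counts in the wild-type and 240.1, 283.3 and 303.6 in the mutant, with a log2 fold change of −1.30 ± 0.16 (SE, n = 3 per strain). The strains did not overlap for this RNA. For the gene it is antisense to, the log2 fold change was 0.13 ± 0.16 (adjusted p = 0.66), with normalized counts of 336.2, 347.4 and 384.0 in the wild-type and 417.4, 415.3 and 332.5 in the mutant. Upstream of SPNCRNA.1195 and divergent from it is *gdh1*, the gene of NADP-specific glutamate dehydrogenase, which makes glutamate from ammonium. *gdh1* fell from 53671 ± 3483 to 29921 ± 758 normalized counts (SD, n = 3), with a log2 fold change of −0.84 ± 0.09 (adjusted p = 0.000179), past the threshold in all 6 fits that left out 1 library.

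*rse1* is annotated as a long intergenic RNA that represses *ste11* in *cis*, and *ste11* encodes the transcription factor that turns on genes for mating and meiosis. *rse1* had 1712, 1862 and 2096 normalized counts in the wild-type and 828.4, 897.0 and 967.7 in the mutant. The strains lay far apart for *rse1*, and the log2 fold change of *rse1* was −1.07 ± 0.12 (SE, n = 3 per strain). *ste11*, its divergent neighbour, was lower as well, and did not move opposite to its annotated repressor. Its normalized counts were 1459, 1357 and 1422 in the wild-type and 461.1, 370.3 and 564.4 in the mutant, with a log2 fold change of −1.60 ± 0.16 (adjusted p = 6.1e-05), past the threshold in all 6 fits that left out 1 library. Genes that mark cells of the *h-* mating type fell with them: 5 of 6 markers passed the test, among them the M-factor pheromone genes *mfm1* and *mfm2*, and none rose. *mfm1*, *mfm2* and *mam2* also passed in all 6 fits that left out 1 library. The summed raw count of all 6 markers was 5198 to 7983 in the wild-type libraries and 3272 to 3892 in the mutant ones. Of 3 markers of *h+* cells, *map2* fell and neither *map3* nor *map4* passed, and their summed raw count was 986 to 1271 in the wild-type and 1170 to 1233 in the mutant. No marker of either list was at 0. The part of mating type or cell type in the *rse1* and *ste11* differences was not tested.

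SPNCRNA.1622 had 527.6, 583.9 and 503.1 normalized counts in the wild-type and 235.5, 268.0 and 272.0 in the mutant (log2 fold change −1.06 ± 0.15, SE, n = 3 per strain). It overlaps 4.41% of *zrt1*, a zinc transporter gene on the opposite strand. *zrt1* moved the other way, with a log2 fold change of 0.34 ± 0.10 (adjusted p = 0.0478), but this passed only in the fit without wild-type replicate 3 of the 6 that left out 1 library. SPNCRNA.1316 had 436.5, 478.8 and 385.1 normalized counts in the wild-type and 221.9, 207.6 and 230.1 in the mutant (log2 fold change −0.98 ± 0.15, SE, n = 3 per strain). Coding genes at its site fell too: *thi7*, a transporter gene that it partly overlaps on the opposite strand, with a log2 fold change of −0.92 ± 0.12 (adjusted p = 0.000641), and *urh1*, which encodes uridine ribohydrolase and lies upstream on the same strand, with −2.15 ± 0.16 (adjusted p = 8.63e-06). Both passed in all 6 fits that left out 1 library.

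SPNCRNA.863, which overlaps no coding gene, was the sixth. Its normalized counts were 953.8, 918.2 and 531.8 in the wild-type and 386.5, 465.4 and 470.4 in the mutant. Wild-type replicate 3 was close to the mutant values, and the log2 fold change of −0.86 ± 0.21 (SE, n = 3 per strain) became −1.09 without that library. Neither of the coding genes beside SPNCRNA.863 passed the test. The other 9 members in the group of 15 had log2 fold changes from −0.85 (SPNCRNA.954) to −0.42 (SPNCRNA.1443).

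**Figure D3:**
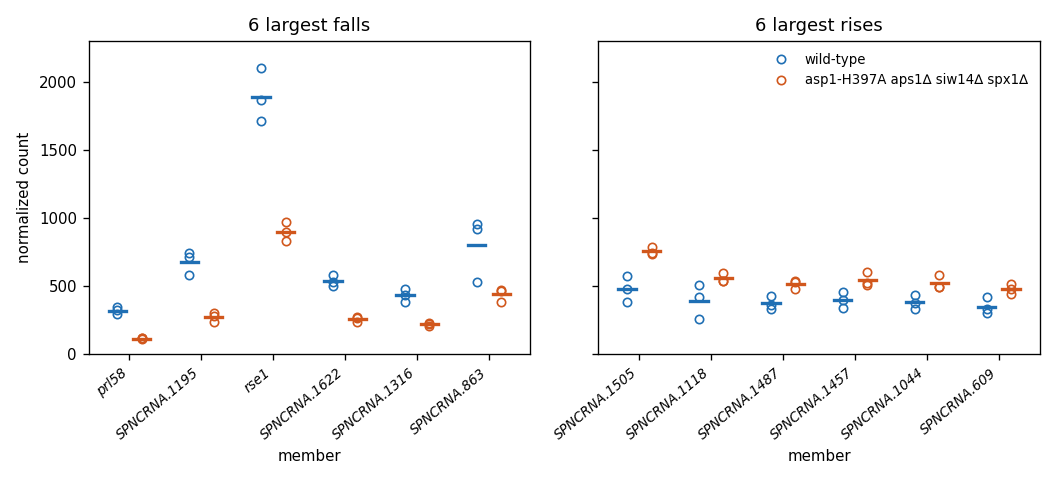
Normalized counts of the 6 members with the lowest and the 6 with the highest log2 fold change. Circles are single libraries (3 per strain) and bars their means. These members were picked by fold change, which favours separation of the strains. The strains do not overlap for any of the 6 falls, and wild-type replicate 3 of SPNCRNA.863 (531.8) comes nearest to the mutant.

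The highest fold change was smaller. SPNCRNA.1505, antisense to the phosphoketolase family gene *SPBC24C6.09c*, had 574.4, 479.7 and 385.1 normalized counts in the wild-type and 746.6, 785.5 and 739.5 in the mutant. The mutant libraries were all higher and close together, and the log2 fold change of SPNCRNA.1505 was 0.66 ± 0.16 (SE, n = 3 per strain), or 0.52 without wild-type replicate 3. In that fit SPNCRNA.1505 was not the highest, and SPNCRNA.609 (0.59), SPNCRNA.1518 (0.58), SPNCRNA.1487 (0.56), SPNCRNA.1044 (0.55) and SPNCRNA.1158 (0.54) stood above it. *SPBC24C6.09c*, which it covers whole, stood at −0.56 ± 0.27 on the log2 scale (adjusted p = 0.22), with 728.2 normalized counts in wild-type replicate 3 and 249.6 to 395.6 in the other libraries.

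The next 5 were SPNCRNA.1118 (log2 fold change 0.50), SPNCRNA.1487 (0.46), SPNCRNA.1457 (0.46), SPNCRNA.1044 (0.45) and SPNCRNA.609 (0.45), with standard errors of 0.15 to 0.21. The mutant libraries lay wholly above the wild-type for each of them. The choice by fold change favours this, and the strains did not overlap for 33.7% of all genes tested, in either direction. None of these 5 was past the adjusted threshold of edgeR with all 6 libraries. Without wild-type replicate 3, all but SPNCRNA.1118 were past it, in a fit where 14.3% of all genes tested were higher. All 5 are antisense to a coding gene over at least 40% of their length: the hexose transporter gene *ght6*, the DNA glycosylase gene *mag2*, the transcription factor gene *atf21*, the meiotic gene *mcp3* and the oxoprolinase gene *SPAC11D3.14c*, in the same order. SPNCRNA.1118 was among the most variable, with 506.0, 419.6 and 259.3 normalized counts in the wild-type against 538.4, 541.1 and 597.0 in the mutant, and its log2 fold change was 0.27 without wild-type replicate 3. The coding genes beside the 6 RNAs with the largest rises did not pass: edgeR placed 0 of 12 nearest neighbours past the adjusted threshold, as did both DESeq2 and limma-voom. By edgeR 11.6% of all coding genes tested passed, and 1 of the 12 was under 0.05 before adjustment. Among the coding genes that these RNAs overlap, *SPAC11D3.14c* did pass by edgeR (log2 fold change 0.60 ± 0.15, adjusted p = 0.0218), but in only 2 of 6 fits that left out 1 library.

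The members were more variable in the wild-type than in the mutant. The median SD of the log2 normalized count was 0.174 in the wild-type and 0.095 in the mutant (n = 3 each), and it was larger in the wild-type for 66 of 82 members. Coding genes of the same range of counts showed this more strongly, with median SDs of 0.224 and 0.068. Wild-type replicate 3 was over 1.5-fold below the other wild-type libraries for 5 members (6.10%) and for 25.4% of those coding genes. The most variable members were SPNCRNA.1115, SPNCRNA.1118, SPNCRNA.863 and SPNCRNA.1116, and SPNCRNA.1115 and SPNCRNA.1116 overlap each other on opposite strands. SPNCRNA.1115 had 615.4, 648.7 and 311.1 normalized counts in the wild-type and 743.0, 564.6 and 412.6 in the mutant. SPNCRNA.1116 had 417.1, 403.7 and 275.8 in the wild-type and 442.9, 372.3 and 319.5 in the mutant, with replicate 3 lowest in both strains for both RNAs. The steadiest were SPNCRNA.636, SPNCRNA.1443, SPNCRNA.1625 and SPNCRNA.1263. SPNCRNA.636 had 370.4, 364.3 and 384.0 normalized counts in the wild-type and 365.6, 364.1 and 366.0 in the mutant, which gave a log2 fold change of −0.03 ± 0.14.

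Some of the steadiest members still shifted between strains, and the relation of spread and shift over all members was not tested. SPNCRNA.1625 had 665.5, 641.2 and 601.3 normalized counts in the wild-type and 408.3, 396.9 and 405.2 in the mutant, with a log2 fold change of −0.66 ± 0.13 (SE, n = 3 per strain). SPNCRNA.1443 had 1029, 1047 and 984.2 in the wild-type and 775.7, 743.6 and 761.9 in the mutant, with a log2 fold change of −0.42 ± 0.11. Both overlap no coding gene, and both were well separated between strains, which the choice by small spread favours. Divergent from SPNCRNA.1443 is *isp4*, an oligopeptide transporter gene, which fell with a log2 fold change of −0.88 ± 0.09 (adjusted p = 8.54e-05), past the threshold in all 6 fits that left out 1 library.

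Antisense overlap with coding genes was the most common arrangement. Of 81 members paired with the annotation, 62 (76.5%) overlap a coding gene on the opposite strand by at least 1 base, as do 58.4% of 1345 other SPNCRNA rows. The share that cover a whole coding gene was 34.6% against 9.52%. With an overlap of at least 50% of the RNA, the shares were 45.7% and 43.6%. The members are longer than the other rows, and the part of length in the difference was not tested. Another 4 members overlap a coding gene on the same strand only, 15 overlap none, and 17 overlap another SPNCRNA row on the opposite strand. The 62 antisense members had a median log2 fold change of −0.01, and the 15 without coding overlap a median of −0.30.

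The counts within these overlaps were not empty. SPNCRNA.1195 and SPNCRNA.1044, which lie wholly inside a coding gene on the opposite strand, had mean normalized counts of 680.5 in the wild-type and 275.7 in the mutant (SPNCRNA.1195), and of 381.3 and 521.8 (SPNCRNA.1044). Of 30 coding genes wholly covered by an antisense member, 16 averaged 100 normalized counts or more and 5 averaged under 10. Of all 161 coding genes wholly covered by an SPNCRNA row on the opposite strand, those 30 included, 123 averaged 100 or more. The library kit was directional, and how strand was set in the counting is not stated in the sources used here. SPNCRNA.1195 and *tti1* both had counts well above 0 in every library, so reads in that overlap were not all dropped, and *spo4* was close to 0 under SPNCRNA.1644, so reads there were not counted for both genes.

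Many antisense members exceeded the coding gene they overlap. Over the 62 members, each set against the opposite-strand gene it overlaps most, the member had more normalized counts per kilobase in 36. The members had to reach a mean of 300 wild-type counts and the partners had no minimum, which favours the members in this comparison. Among the 29 pairs in which at least 95% of the coding gene is covered, the member was higher in 20, and the coding gene had a mean normalized count under 50 in 14. *spo4* had 0 to 2.05 normalized counts in every library, while SPNCRNA.1644 over it had between 1777 and 2255. *ght6* had 1.82 to 10.3 normalized counts under SPNCRNA.1118. *nmt1*, the thiamine-repressible gene whose promoter is widely used in fission yeast, had 4.09 to 16.4 under SPNCRNA.1234, in a medium that contains thiamine. These coding genes were close to silent in both strains. At the other end, SPNCRNA.622 is antisense to *sty1*, the gene of the stress-activated MAP kinase, and had 154.3 normalized counts per kilobase against 5449 for *sty1*.

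**Figure D4:**
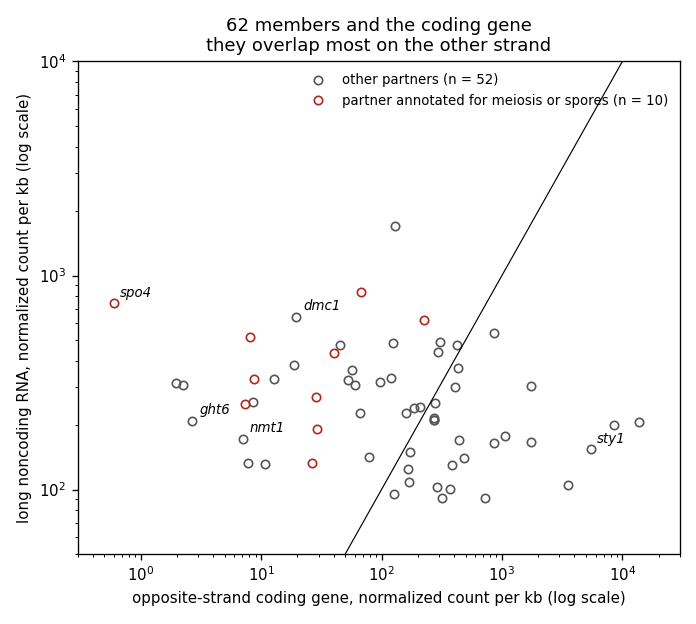
Normalized counts per kilobase (log axes) of 62 members (y axis) and of the coding gene each overlaps most on the opposite strand (x axis), as means of 6 libraries. Points left of the diagonal, 36 of 62, are pairs in which the noncoding RNA is higher, and all 10 pairs with a gene annotated for meiosis or spores (red) are among them. The members had to reach a minimum count and the partners did not.

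Genes of meiosis and spore formation were frequent among these partners. By words in the annotation, chosen after the partners had been seen, 10 of 62 (16.1%) are such genes, against 3.46% of all coding genes and 6.62% of the main partners of other SPNCRNA rows. They are *spo4*, *mug68*, *mug2*, *bgs2*, *hop1*, *meu7*, *meu14*, *meu25*, *mcp3* and *pal2*. In all 10 pairs the member had more normalized counts per kilobase, as it did in 26 of the other 52. The minimum count set for members alone favours this. *dmc1*, which encodes a meiotic recombinase and which those words missed, is covered whole by SPNCRNA.904. Its normalized counts were 22.8, 25.4 and 45.2 in the wild-type and 8.18, 10.2 and 14.0 in the mutant, so that it was low in every library and lower in all mutant ones. The log2 fold change of *dmc1* was −1.51 ± 0.37 (adjusted p = 0.0206), and it was not past the threshold without mutant replicate 1 or 2. *meu7*, an alpha-amylase gene of the meiotic expression group, fell with a log2 fold change of −1.35 ± 0.19 (adjusted p = 0.000758), while SPNCRNA.1685 over it had a log2 fold change of 0.36.

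The coding partners could be tested, since the rule did not use them. Of 78 coding genes overlapped by a member on the opposite strand, 72 passed the low-count filter, and 6 of these were higher and 8 lower by the same adjusted p threshold. That is 19.4%, beside 11.6% of all 4961 coding genes tested (5.81% higher and 5.74% lower). The counts ranged from 1 to 9 higher and from 5 to 20 lower when 1 library was left out, with 20 lower without wild-type replicate 3 (when 13.7% of coding genes were lower), 5 lower without mutant replicate 2, and 1 higher without wild-type replicate 2 or any 1 mutant replicate. The largest fall was in *SPAC11D3.03c*, which had 311.1, 336.1 and 219.6 normalized counts in the wild-type and 80.0, 67.5 and 79.2 in the mutant. Its log2 fold change was −1.93 ± 0.20 (adjusted p = 0.000107), and that of *SPAC11D3.02c* beside it, an acetyltransferase gene, was −0.79 ± 0.16 (adjusted p = 0.00853). SPNCRNA.608 covers both, and its own log2 fold change was −0.65. *gpa1*, which encodes the G protein alpha subunit of pheromone signalling, fell with a log2 fold change of −0.90 ± 0.10 (adjusted p = 0.000237), and SPNCRNA.1503, antisense to part of it, had one of −0.45. These 3 coding genes passed in all 6 fits that left out 1 library.

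Partners that rose had smaller changes apart from one. The pseudogene *SPAC23D3.05c*, covered by SPNCRNA.979, rose from 81.3 ± 18.6 to 171.5 ± 4.5 normalized counts (SD, n = 3), a log2 fold change of 1.08 ± 0.20 (adjusted p = 0.00424), and passed in all 6 fits that left out 1 library. The other 5 that rose (*SPAC11D3.14c*, *sec28*, *pus9*, *nup146* and *zrt1*) had log2 fold changes of 0.34 to 0.60, and none passed without wild-type replicate 2 or without any 1 mutant replicate. Over the 56 pairs with both tested, the fold changes had the same sign in 29 and opposite signs in 27, with Pearson's r of 0.05 and Spearman's rho of 0.00. The pairs share the 6 libraries, some share a site, and the most changed RNAs had been removed from the members.

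The nearest coding genes on either side that are not overlapped were tested in the same way. Of 150 such genes, 11 were higher and 14 lower (16.7% past the threshold, beside 11.6% of all coding genes tested). With 1 library left out these counts ranged from 3 to 27 higher and from 11 to 28 lower. They were highest without wild-type replicate 3, when 16% and 13.7% of coding genes passed in those directions, and stood at 18 and 22 without wild-type replicate 1. The number higher was 3 without wild-type replicate 2 or mutant replicate 3, 4 without mutant replicate 1 and 5 without mutant replicate 2. Of the 15 members that were lower, 6 had a neighbour that fell: *prl58*, SPNCRNA.1195, *rse1*, SPNCRNA.1316, SPNCRNA.1443 and SPNCRNA.1236. A neighbour also fell for 6 of the other 67 members. SPNCRNA.1236 had a log2 fold change of −0.68, and its divergent neighbour *uro1*, the uricase gene, one of −1.60 ± 0.12 (adjusted p = 8.63e-06), which held in all 6 fits that left out 1 library. Over the 60 pairs in which the neighbour is divergent, starting upstream on the opposite strand, the signs were the same in 33 and opposite in 27 (Pearson's r of 0.40, Spearman's rho of 0.26, across pairs that share libraries). Over all 157 pairs tested, r was 0.22 and rho 0.21. By position, r was 0.49 (rho 0.32) for 20 upstream pairs on the same strand and 0.37 (rho 0.33) for 25 downstream pairs on the opposite strand. For 52 downstream pairs on the same strand r was −0.15 but rho was 0.04. For SPNCRNA.995 the neighbour moved the other way. Its log2 fold change was −0.79 while *SPAC27D7.09c*, a But2 family gene downstream on the same strand, rose with 2.29 ± 0.35 (adjusted p = 0.00159), also past the threshold in all 6 such fits.

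**Figure D5:**
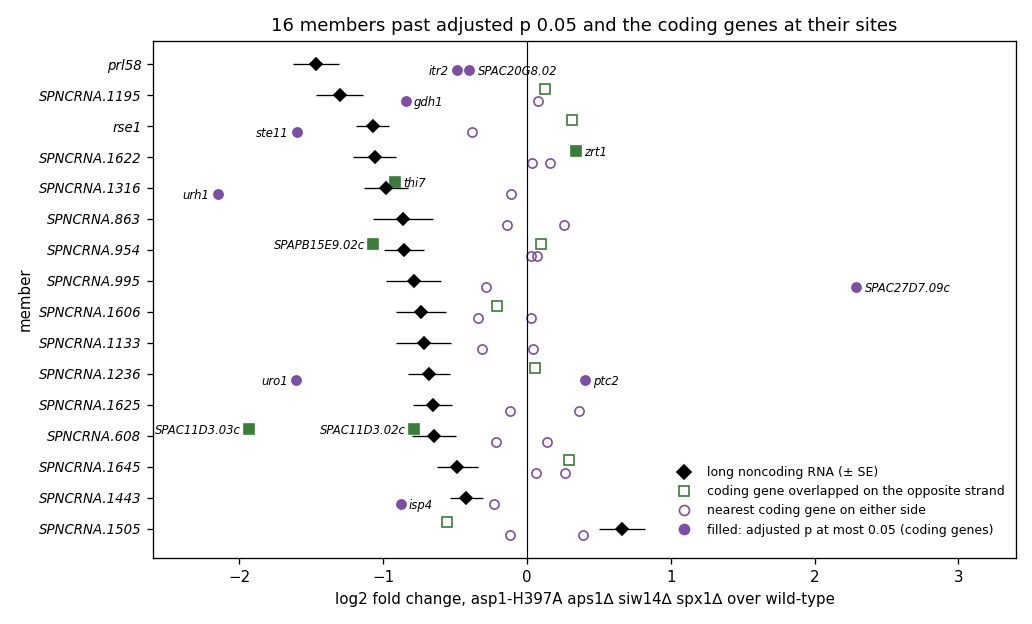
Log2 fold changes (mutant over wild-type) of the 16 members past an adjusted p of 0.05 (diamonds, ± SE), of the coding genes they overlap on the opposite strand (squares) and of the nearest coding gene on either side (circles). Filled symbols are coding genes past that threshold. Among neighbours of the members that were lower, *ste11*, *urh1* and *uro1* lie furthest left and *SPAC27D7.09c* lies furthest right, at 2.29.

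Few of the genes that act on noncoding RNAs passed the test. None of 19 nuclear exosome and surveillance genes, 17 RNA interference and heterochromatin genes, or 17 genes of 5′ decay and nonsense-mediated decay was past an adjusted p of 0.05 in edgeR's test in either direction, and their median log2 fold changes were 0.19, 0.10 and 0.03. In each of these lists 2 genes were higher at an unadjusted p under 0.05 by edgeR, and by DESeq2 1 exosome gene, 1 RNA interference gene and 0 decay genes were higher at the adjusted threshold. Of 11 Mmi1 and MTREC genes only *mei2*, which encodes an RNA-binding protein involved in meiosis, passed, with a log2 fold change of −2.03 ± 0.16 (adjusted p = 9.25e-06). The list for cleavage at the poly(A) signal and for termination held 19 genes, among them *hrp1* (a CENP-A chaperone) and *cps1* (a carboxypeptidase), which by their annotation are no such factors. Of the other 17, 4 were higher and 0 lower by edgeR's adjusted threshold, beside 5.81% and 5.74% of coding genes, with 7 and 1 at an unadjusted p under 0.05, and 5 and 0 by DESeq2. Those higher were *seb1*, an RNA-binding termination factor (log2 fold change 0.71 ± 0.09, adjusted p = 0.000314), *msi2* (0.46), *pcf11* (0.41) and *rna15* (0.33). The call for *seb1* held in all 6 fits that left out 1 library, and those for *msi2*, *pcf11* and *rna15* held only without wild-type replicate 1 or 3.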

How the data were processed

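Raw counts per gene of 3 wild-type and 3 mutant libraries were deposited by the authors, who had used HISAT2 (version 2.1.0), the ASM294v2 build and HTSeq (version 0.10.0) per the submitters' processing notes. The strand setting was not stated there. A second deposited table holds the authors' own DESeq2 comparison (fold changes, p-values, strain averages) and was not used.

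After filterByExpr and TMM scaling, the quasi-likelihood test of edgeR (version 4.0.16, under R version 4.3.3) was run between strains, and p-values of the 5947 genes kept were adjusted by Benjamini-Hochberg. The script was tested on simulated data. A standard error is the log2 fold change over the square root of F. A call needed a 2-fold change, an adjusted p of at most 0.05 and, in the higher strain, 100 or more normalized counts on average. Names, lengths, overlaps and neighbours came from RefSeq's ASM294v3 annotation by systematic ID (6836 of 6988 rows paired). Because the builds differ, no coordinates or sequences are given, and a planned search of promoter motifs was not run.

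The members and the lists were chosen with earlier results of these data known. Members were named by level, level per kilobase, fold change, spread, name and nearness to the minimum. Coding genes were named where they overlap or adjoin those members or changed most among overlapping genes; *nmt1*, *sty1*, *uro1*, *isp4*, *gpa1*, *SPAC27D7.09c*, *meu7* and the small partner changes were chosen after their values were seen. Alternatives were RLE size factors, library totals, other low-count filters, DESeq2 version 1.42.0, limma-voom (limma version 3.58.1), a replicate block, other member rules and leaving out each library; those on coding genes, on *prl53* and on *hrp1* and *cps1* were chosen after seeing the data.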

Additional observations from a re-analysis of the deposited data

How the results depend on the processing

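The median log2 fold change of the members stayed between −0.18 and −0.01 under every alternative, and 343 of 390 values of the 30 named members kept direction and side of the threshold over 13 alternatives each. The number of members higher was 1 with all settings kept, 2 with library totals, 8 with DESeq2 version 1.42.0, 2 with limma-voom, and 0 to 17 when 1 library was left out. The number lower was 15, and 6 to 23 when 1 library was left out. The highest counts were without wild-type replicate 3. The cause was not tested.

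With a minimum of 200 counts there were 146 members, 3 higher and 27 lower, and with 500 counts 39 members, 0 higher and 9 lower. With 300 normalized counts on average over all 6 libraries, 3 were higher. The members' share of counts was 0.0185 percentage points higher in the mutant (0.0122 to 0.0297 with 1 library left out), and 5.21 points higher as a share of SPNCRNA counts. Without *prl53* these differences were −0.0270 and −1.24 points, with *prl53* also out of the SPNCRNA total 2.64 points, and with the 11 RNAs set apart also out 0.741 points. With an overlap of at least 50% of the RNA, 37 members were antisense in place of 62. Antisense coding partners numbered 1 to 9 higher and 5 to 20 lower with 1 library left out, and neighbouring coding genes 3 to 27 higher and 11 to 28 lower.

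Fold changes near 0 changed sign. SPNCRNA.1644 was at 0.00014 with RLE size factors and 0.00013 with DESeq2, and between −0.085 and 0.086 with 1 library left out. SPNCRNA.1469 was at −0.010 with library totals and between −0.075 and 0.12 with 1 library left out. With 1 library left out, SPNCRNA.1115 ranged from −0.15 to 0.32, SPNCRNA.1116 from −0.12 to 0.16, SPNCRNA.1537 from −0.19 to 0.041 and SPNCRNA.605 from −0.030 to 0.29. SPNCRNA.1505 and SPNCRNA.863 were not past the threshold with library totals, or without wild-type replicate 2 or any 1 mutant replicate.

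The replicate numbers gave no sign of pairing between strains. Deviations from the strain mean had correlations of −0.03, −0.03 and −0.06 between same-numbered libraries over 5947 genes. Between differently numbered libraries they ran from −0.06 to 0.09. The check rests on 3 libraries per strain and cannot exclude pairing. With the replicate number as a block, 1 member was higher and 13 were lower.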
